A study of Mus musculus with 17 samples.

Results

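The tumour necrosis factor (TNF) ligand and receptor superfamily was followed through sorted mouse bone marrow with and without glycosylphosphatidylinositol (GPI), the lipid that anchors a class of proteins to the cell surface. Members were the genes whose symbol begins with Tnfsf (ligand series) or Tnfrsf (receptor series) followed by a digit, on an array probe set that names 1 gene. The rule found 27 genes among 18193 with such a probe set: 7 ligands, 19 receptors and Tnfsf13os, an antisense RNA that matches by its name and is neither. They lie on 46 probe sets, and each gene was represented by its brightest. A filter on dim probe sets left 25 of the 27 for testing: all 7 ligands, 17 receptors and the antisense RNA. The receptors Tnfrsf10b, which binds the death ligand TRAIL, and Tnfrsf11b, the soluble decoy osteoprotegerin, did not pass it.

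The 17 arrays measured marrow of femurs and tibias sorted with fluorescent antibodies to the GPI-linked proteins CD24, CD48 and Gr-1. In batch 1, 3 GPI-negative and 3 GPI-positive fractions came from mice with a targeted deletion of Pig-a, the X-linked gene for the first step of GPI synthesis, so both carry the knock-out background. Batch 2 held 4 GPI-negative fractions from C57BL/6 recipients of knock-out marrow, 3 GPI-positive fractions from C57BL/6 recipients of wild-type marrow and 4 GPI-positive fractions from wild-type C57BL/6 mice. The knock-out graft was first treated with 10 nM aerolysin, a toxin that lyses cells bearing GPI proteins, for 30 minutes, and its hosts received 9 Gy. The sources used here do not give any irradiation of the hosts of wild-type marrow, the ages, what drove the deletion or whether animals were pooled. Since only the knock-out graft was depleted with aerolysin, GPI status in recipients cannot be told apart from graft genotype and depletion.

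Ligands of this superfamily are mostly membrane proteins that act as trimers, and their receptors carry cysteine-rich repeats outside the cell. Some receptors recruit TRAF adaptors and activate NF-kB, whereas others carry a death domain that can start apoptosis. In marrow and lymphoid tissue the family is known for T-cell costimulation, B-cell survival through BAFF, osteoclast formation through RANK and inflammatory signalling through TNF.

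The deposited values run on a logarithmic scale whose base is not stated. They were read as log10, so every log2 difference and fold given here assumes that base. On this scale, Piga averaged 0.608 in the knock-out GPI-negative arrays, 1.22 in the knock-out GPI-positive, 0.108 in recipients of knock-out marrow, 1.20 in recipients of wild-type marrow and 1.22 in wild type. The array's hybridisation controls, spiked into every sample, averaged 7.78 ± 0.33 (log2, SD, n = 3) in the knock-out GPI-negative arrays and 5.70 ± 0.28 (n = 3) in the GPI-positive. The Gapdh 3' minus 5' difference, a sign of RNA quality, was -0.16 ± 0.13 and -1.02 ± 0.02 in those groups. The 3 knock-out GPI-positive arrays also lay closer together than any other group, with a median SD of 0.0857 (log2) over bright probe sets against 0.146 to 0.194. The deposited file has no detection flags, and differences of dim probe sets are compressed, so folds with a group mean below the 40th percentile of its arrays are approximate.

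In the knock-out mice, 17 of the 25 tested members differed between GPI-negative and GPI-positive marrow, 8 higher and 9 lower in the GPI-negative fraction (limma, Benjamini-Hochberg adjusted p under 0.05 over 14245 genes). This is 68% of the members, against 29.5% of all genes tested, 14.8% in each direction. The 2 fractions did not overlap for 17 members, against 43.2% of all genes; for 3 arrays against 3 the smallest exact permutation p is 0.1. Ligands were called 5 times of 7, with 3 higher, 2 lower and a median log2 difference of 0.414. Receptors were called 11 times of 17, with 5 higher, 6 lower and a median of -0.0362, and the median over all genes was -0.00569. When the 3 closely similar GPI-positive arrays were averaged into 1 sample, the log2 differences were unchanged, but fewer members and fewer of all genes were called. The members that lost their call were Tnfrsf1a, Tnfrsf11a, Tnfrsf22, Tnfrsf23, Tnfsf10, Tnfsf14 and Tnfsf13os.

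Markers of other cell types moved with this comparison. All 13 tested T and natural killer (NK) cell genes were higher in the GPI-negative fraction, with a median log2 difference of 3.6, and their mean log2 level ranged from 5.02 to 5.11 against 1.72 to 1.83. All 8 plasmacytoid dendritic cell genes were higher (median 1.60), as were 7 of 9 B-cell genes (median 0.846). Lower were 9 of 10 neutrophil genes (median -1.24) and 7 of 9 macrophage genes (median -0.834); 1 plasma cell gene of 8 was higher and 4 were lower, and none of 8 erythroid genes was called. No marker value was 0 in any group. In bulk marrow, more cells of a type and more RNA per cell cannot be told apart, and the part of these markers in the family's differences was not tested.

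**Figure D1:**
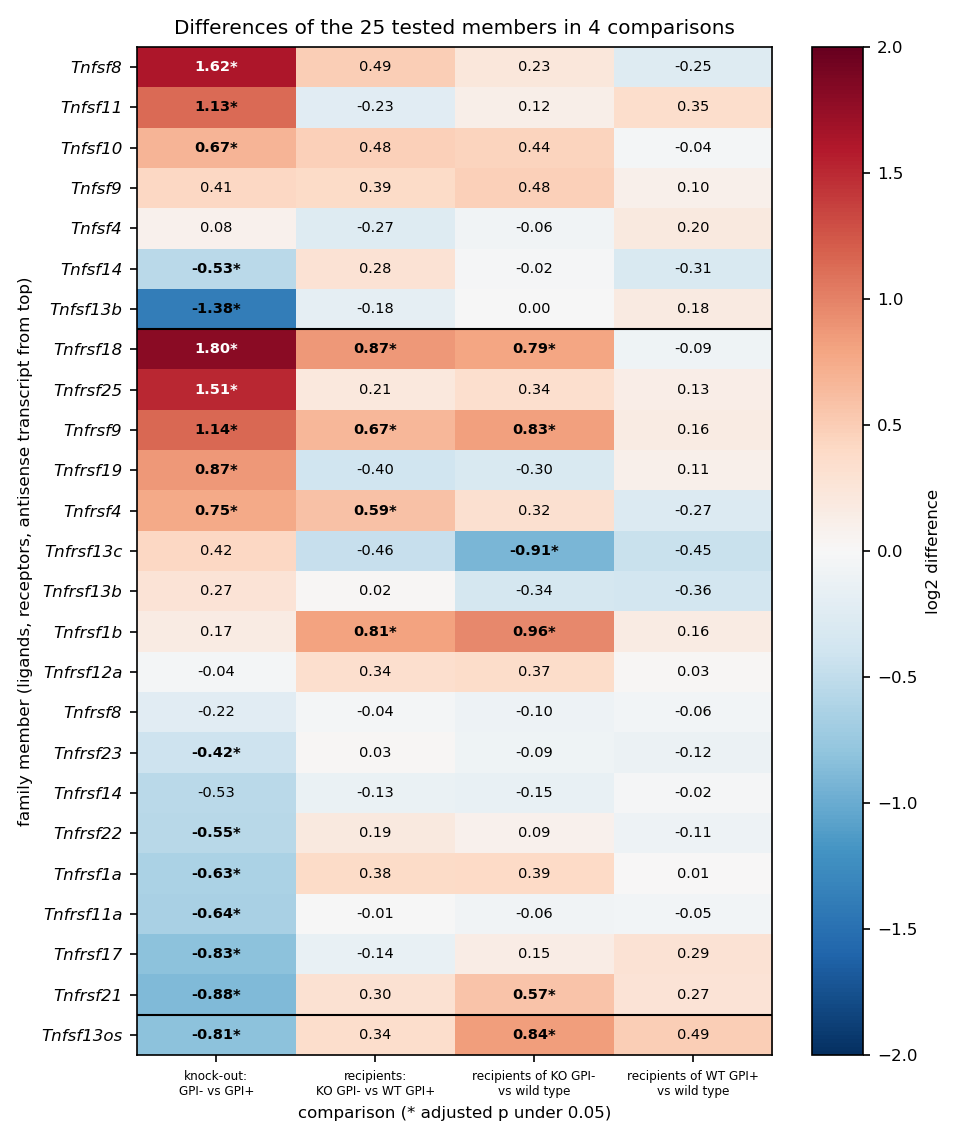
Log2 differences of the 25 tested members (rows: ligands, receptors, then the antisense RNA) in 4 comparisons (columns), printed in each cell and coloured from blue (lower) to red (higher); an asterisk marks an adjusted p under 0.05, KO is Pig-a knock-out marrow and WT wild-type marrow. The knock-out column holds 17 calls, the column of recipients 4, that of knock-out graft against wild type 6, and the last none.

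Among the 25 tested members, Tnfrsf18 had the largest rise in the knock-out mice; Cd27 and Fasl, relatives whose symbols fall outside the rule, rose by more. Tnfrsf18 (GITR), found on regulatory and activated T cells, had deposited values of 1.39, 1.39 and 1.48 in GPI-negative and 0.86, 0.89 and 0.89 in GPI-positive knock-out marrow. All 3 GPI-negative arrays were far above all GPI-positive arrays, a log2 difference of 1.80 ± 0.17 (SE) or 3.47-fold (limma adjusted p = 9.54e-08). Its chromosomal neighbour Tnfrsf4 (OX40), a receptor that prolongs T-cell responses, read 0.90, 0.99 and 1.06 against 0.78, 0.71 and 0.78. These groups too were separate, by 0.75 ± 0.16 or 1.68-fold (limma adjusted p = 0.001166). Tnfrsf9 (CD137), induced on activated T and NK cells, read 0.79, 0.75 and 0.85 against 0.40, 0.43 and 0.53. The difference was 1.14 ± 0.16 or 2.21-fold (limma adjusted p = 1.314e-05), without overlap. Of its other probe sets, 1 passed the filter and was at 0.04, and the mean with it was 0.59, still called; the other, which did not pass, was at 0.77.

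Tnfrsf18, Tnfrsf4 and Tnfrsf9 are the members that were higher in both comparisons that share no array, so the 250 bases before their RefSeq transcript starts are shown, on the + strand of build GRCm38.p6. Capitals mark matches to the NF-kB consensus, searched on both strands. Tnfrsf9 has 2 annotated starts.
Tnfrsf18, chr4:156026072-156026321: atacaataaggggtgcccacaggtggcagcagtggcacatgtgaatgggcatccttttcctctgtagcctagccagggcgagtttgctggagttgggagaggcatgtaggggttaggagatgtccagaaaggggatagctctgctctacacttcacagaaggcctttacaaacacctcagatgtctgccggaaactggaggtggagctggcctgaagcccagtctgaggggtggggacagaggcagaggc
Tnfrsf4, chr4:156013445-156013694: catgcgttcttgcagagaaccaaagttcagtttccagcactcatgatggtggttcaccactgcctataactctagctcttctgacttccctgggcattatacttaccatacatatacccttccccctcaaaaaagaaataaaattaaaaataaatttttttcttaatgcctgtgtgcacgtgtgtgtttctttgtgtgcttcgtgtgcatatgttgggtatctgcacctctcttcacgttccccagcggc
Tnfrsf9, first start, chr4:150919905-150920154: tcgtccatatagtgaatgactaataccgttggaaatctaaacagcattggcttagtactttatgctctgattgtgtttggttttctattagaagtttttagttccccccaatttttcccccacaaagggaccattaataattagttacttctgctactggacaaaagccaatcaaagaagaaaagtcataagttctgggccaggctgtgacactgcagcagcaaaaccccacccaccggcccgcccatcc
Tnfrsf9, second start, chr4:150927749-150927998: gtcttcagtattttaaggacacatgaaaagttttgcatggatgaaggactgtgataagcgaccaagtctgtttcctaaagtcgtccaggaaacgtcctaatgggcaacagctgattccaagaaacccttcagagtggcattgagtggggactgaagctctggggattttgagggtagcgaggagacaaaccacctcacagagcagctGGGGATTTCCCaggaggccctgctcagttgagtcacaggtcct

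The second Tnfrsf9 window holds 2 overlapping matches on the + strand, beginning 43 and 42 bases before the start. The other 3 windows hold none. Windows were found for 21 of the 27 members. An NF-kB match occurred in 2 of their 25 windows (8%, Tnfrsf9 and Tnfrsf8) against 3.9% of 32841 mouse windows. The RUNX letters TGTGGT, searched on both strands, occurred in 2 of 25 (8%, Tnfrsf25 and Tnfrsf13c) against 14% of all. A match describes the letters and is not a measured binding site.

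Tnfrsf25, a death-domain receptor that costimulates T cells, read 0.71, 0.64 and 0.76 in GPI-negative and 0.20, 0.28 and 0.27 in GPI-positive knock-out marrow. Every GPI-negative array exceeded every GPI-positive one, by 1.51 ± 0.17 (2.85-fold, limma adjusted p = 1.159e-06), with the GPI-positive mean at percentile 14.6 of its arrays. The Tnfrsf25 mean lay at percentile 62.63 in GPI-negative knock-out marrow. It lay at 38.42, 27.15 and 20.02 in knock-out grafts, wild-type grafts and wild type. Tnfrsf25 thus passed the filter on dim probe sets largely through the group where it was high, and its fold is approximate. The ligand Tnfsf8, which binds the receptor CD30, read 0.81, 0.88 and 0.57 against 0.15, 0.32 and 0.32. Replicate 3 was the lowest of the GPI-negative arrays yet above all GPI-positive ones, and the difference was 1.62 ± 0.23 (3.08-fold, limma adjusted p = 1.287e-05; GPI-positive mean at percentile 16.7). Tnfrsf8, which encodes CD30 itself, was at -0.22 ± 0.15 and was not called (limma adjusted p = 0.279). The ligands Tnfsf4, for Tnfrsf4, and Tnfsf9, for Tnfrsf9, were at 0.08 ± 0.22 and 0.41 ± 0.23 and were not called (limma adjusted p = 0.8265 and 0.1985). Tnfsf18 and Tnfsf15, also listed for costimulation, were not found by the rule and not tested, so the ligand side of that list is incomplete.

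Tnfsf14 (LIGHT), a ligand of lymphoid and myeloid cells, read 1.25, 1.06 and 0.97 against 1.24, 1.25 and 1.26. GPI-negative replicate 1 lay among the GPI-positive arrays, so the groups overlapped (exact permutation p = 0.2). The fit gave -0.53 ± 0.18 (1.45-fold lower, limma adjusted p = 0.02585). That call was lost without any of GPI-negative replicates 2 and 3 and GPI-positive replicates 1, 2 and 3 (limma adjusted p from 0.05547 to 0.1752), and the value was -0.33 without GPI-negative replicate 3. Fitting batch 1 alone gave an adjusted p of 0.08199. Its other kept probe set was at -0.76 and did not overlap. Tnfrsf14 (HVEM), a receptor of Tnfsf14 though not its only one, was at -0.53 ± 0.23, not called (limma adjusted p = 0.09608). Among the 10 tested costimulation genes, 5 were higher, 1 was lower and 4 were not called, against 14.8% of all genes higher and 14.8% lower.

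**Figure D2:**
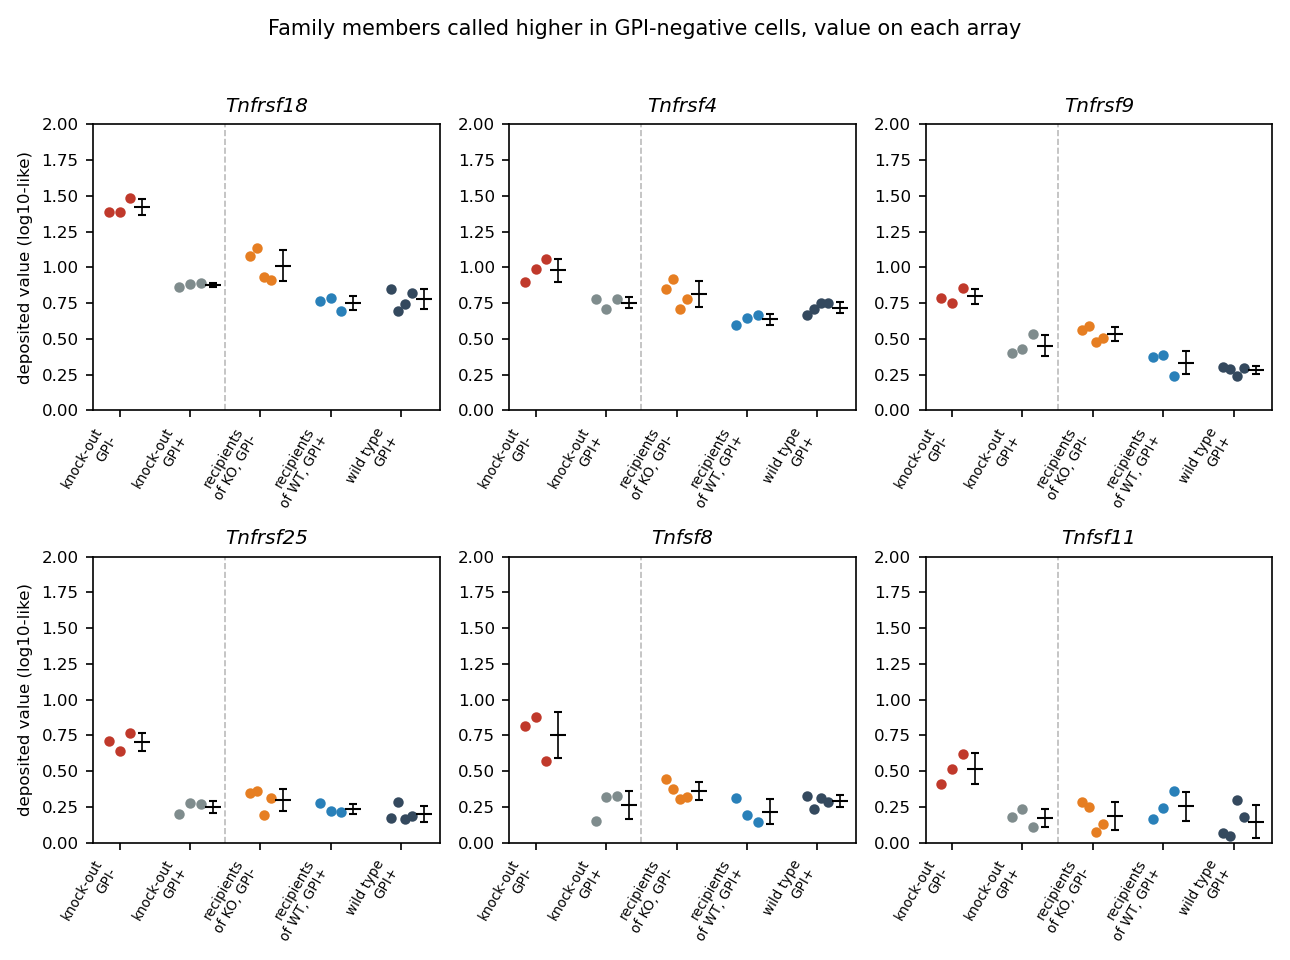
Deposited value (log10-like, vertical axis) of 6 members on every array in 5 groups (horizontal axis; the dashed line parts the batches, KO is Pig-a knock-out and WT wild-type marrow); points are arrays, bars the mean and SD. For each gene the 3 knock-out GPI-negative points lie above the 3 knock-out GPI-positive points, as with Tnfrsf18 at 1.39 to 1.48 against 0.86 to 0.89.

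The pair that controls osteoclast formation moved in opposite directions in the knock-out mice. Tnfsf11 (RANKL), the ligand, read 0.41, 0.52 and 0.62 in GPI-negative and 0.18, 0.23 and 0.11 in GPI-positive marrow. The groups did not overlap and differed by 1.13 ± 0.25 (2.19-fold, limma adjusted p = 0.001543), though the GPI-positive mean lay at percentile 7.12. The mean lay at percentile 50.1 in GPI-negative knock-out marrow, and at 17.2, 30.1 and 11.4 in knock-out grafts, wild-type grafts and wild type. Tnfsf11 thus passed the filter on dim probe sets largely through the group where it was high, and its fold is approximate. Its receptor Tnfrsf11a (RANK) read 0.32, 0.30 and 0.34 against 0.53, 0.46 and 0.54, dim in GPI-negative marrow at percentile 24.7. It was lower by 0.64 ± 0.19 on the log2 scale, that is 1.56-fold (limma adjusted p = 0.01295), a call lost without GPI-positive replicate 3 (limma adjusted p = 0.0527) or with the GPI-positive arrays averaged (0.1584).

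In the BAFF system, which sustains B cells, the ligand fell and its main receptor did not pass the test. Tnfsf13b (BAFF), made largely by myeloid and stromal cells, read 1.11, 1.03 and 0.95 in GPI-negative and 1.43, 1.45 and 1.45 in GPI-positive knock-out marrow. Every GPI-negative array was below every GPI-positive one, 2.60-fold lower at -1.38 ± 0.15 (limma adjusted p = 5.642e-07). Its other probe sets were lower by less, at -0.79 and -0.26, and the mean of all gave -0.81, still called. Tnfrsf13c (BAFF receptor) read 1.18, 1.34 and 1.18 against 1.07, 1.13 and 1.11, separate groups whose difference of 0.42 ± 0.21 was not called (limma adjusted p = 0.1424). Tnfrsf13b (TACI), a receptor that restrains B cells, was at 0.27 ± 0.16, also without overlap and not called (limma adjusted p = 0.2203).

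Tnfrsf17 (BCMA), the receptor typical of plasma cells, read 0.18, 0.24 and 0.19 against 0.47, 0.39 and 0.50. It was lower in all 3 GPI-negative arrays, by -0.83 ± 0.17 or 1.77-fold (limma adjusted p = 0.0006307), from percentile 43.7 to percentile 9.58. Tnfsf13os, the antisense RNA at the locus of the ligand Tnfsf13, read 0.36, 0.58 and 0.29 against 0.54, 0.71 and 0.73. GPI-negative replicate 2 lay within the GPI-positive range (exact permutation p = 0.2), and the fit gave -0.81 ± 0.24 (1.76-fold lower, limma adjusted p = 0.01289). The call was lost without GPI-negative replicate 3 (0.08051) or GPI-positive replicates 2 (0.05705) or 3 (0.06665), each a limma adjusted p. With the mean of its probe sets the value was -0.48 and the limma adjusted p was 0.06011, and it was 0.05083 with batch 1 alone. Whether the probe set separates it from Tnfsf13 was not tested; Tnfsf13 and Tnfsf12 share probe sets with each other and were not analysed here.

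Of the TRAIL ligand, its 2 decoy receptors and death receptor 6, which were listed together, 1 was higher and 3 were lower in GPI-negative knock-out marrow, where 14.8% of all genes were called in each direction. Tnfsf10 (TRAIL), an apoptosis-inducing ligand of T and NK cells, read 0.75, 0.83 and 0.90 against 0.59, 0.65 and 0.63. The groups did not overlap, at 0.67 ± 0.20 or 1.59-fold (limma adjusted p = 0.01299). This call was lost without GPI-negative replicate 3 (limma adjusted p = 0.06783), without GPI-positive replicate 1 (0.05329) and with the GPI-positive arrays averaged (0.1645). Tnfrsf21 (death receptor 6) read 1.23, 1.22 and 1.41 against 1.54, 1.57 and 1.54. All GPI-negative arrays were lower, by -0.88 ± 0.17 or 1.84-fold (limma adjusted p = 0.0004509), and its other probe set gave -1.19.

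The neighbouring genes Tnfrsf22 and Tnfrsf23 encode decoy TRAIL receptors without a death domain, and being close paralogs they may share hybridisation. Tnfrsf22 read 0.46, 0.34 and 0.54 in GPI-negative against 0.66, 0.62 and 0.56 in GPI-positive marrow, and Tnfrsf23 read 0.49, 0.49 and 0.34 against 0.57, 0.57 and 0.56. Neither overlapped, and the differences were -0.55 ± 0.17 (1.47-fold, limma adjusted p = 0.0149) and -0.42 ± 0.16 (1.34-fold, limma adjusted p = 0.04966). Tnfrsf22 was lost without GPI-negative replicate 2 (limma adjusted p = 0.09872) or GPI-positive replicate 1 (0.07358), and other probe sets gave -0.19 and -0.01. Tnfrsf23 was lost without GPI-negative replicate 3, where its value was -0.26 (limma adjusted p = 0.2487), or any GPI-positive array (0.09284 to 0.1109). Batch 1 alone gave limma adjusted p of 0.06367 and 0.106.

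For TNF itself there are 2 receptors, of which 1 was called. Tnfrsf1a, the widely expressed receptor with a death domain, read 1.78, 1.51 and 1.71 in GPI-negative and 1.85, 1.87 and 1.85 in GPI-positive knock-out marrow. All 3 GPI-negative arrays were lower, replicate 2 the most, at -0.63 ± 0.16 or 1.55-fold (limma adjusted p = 0.005448). The difference was -0.37 without that replicate (limma adjusted p = 0.03697), and the adjusted p was 0.1166 with the GPI-positive arrays averaged. Tnfrsf1b, the receptor of immune cells that lacks a death domain, overlapped between fractions at 0.17 ± 0.22 (limma adjusted p = 0.6177), but its second probe set read 0.61, 0.58 and 0.65 against 0.83, 0.84 and 0.78. That probe set did not overlap and was at -0.67, close to the difference of Tnfrsf1a. The receptors were not tested against each other.

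Tnfrsf19 (TROY), an orphan receptor better known in the nervous system and epithelia, read 0.88, 0.88 and 0.80 against 0.57, 0.67 and 0.53. The groups were separate, at 0.87 ± 0.15 or 1.83-fold (limma adjusted p = 0.0001043). Its other probe sets gave 0.03 and 0.11, and the mean of all gave 0.34, not called (limma adjusted p = 0.06764). Tnfrsf12a, the TWEAK receptor, was at -0.04 ± 0.19 and was not called (limma adjusted p = 0.9135).

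**Figure D3:**
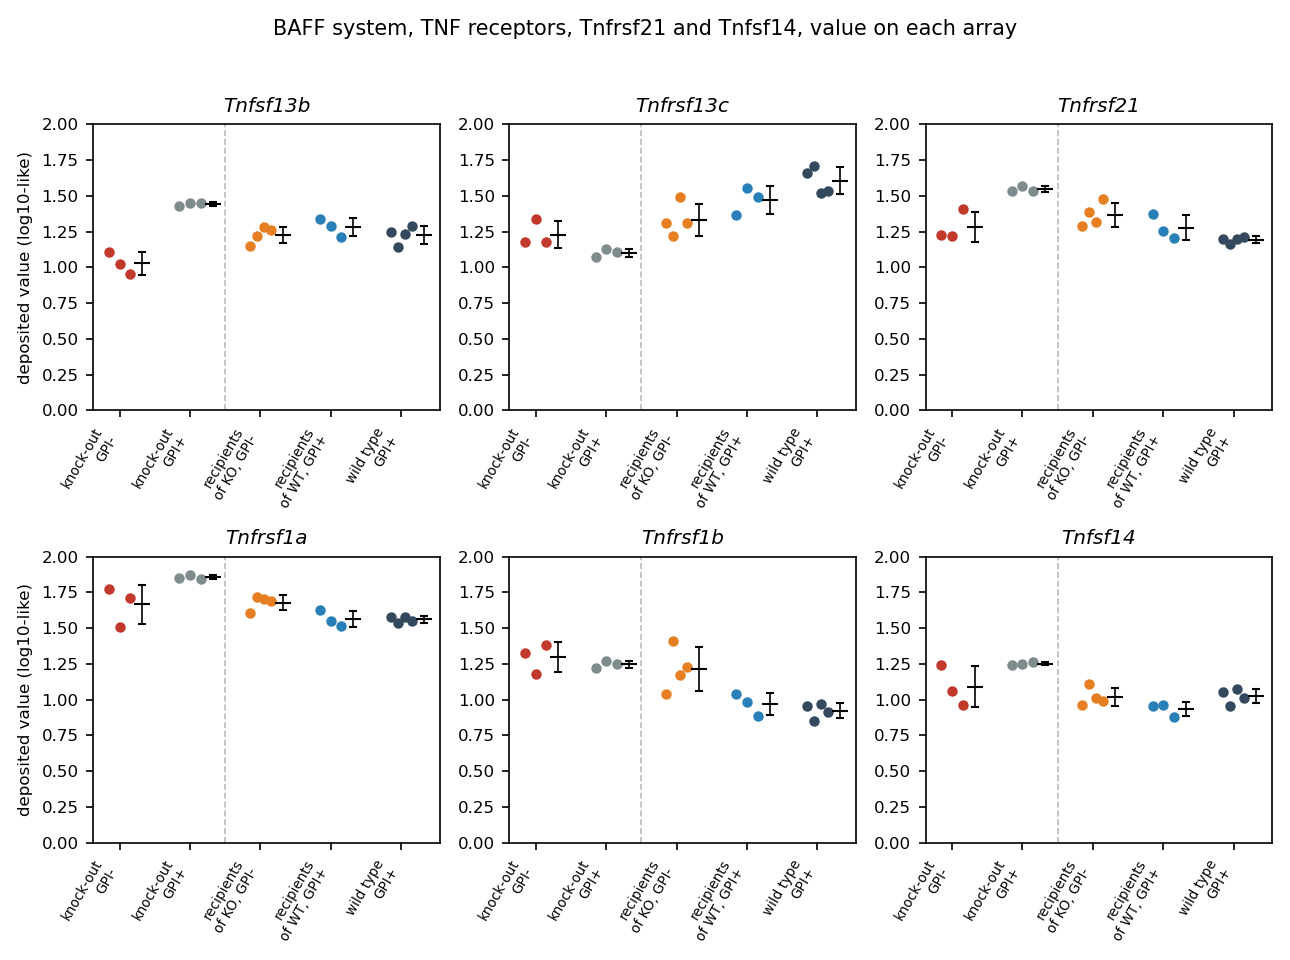
Deposited value (log10-like, vertical axis) of 6 BAFF, TNF receptor and other members on every array in 5 groups (horizontal axis; the dashed line parts the batches, KO is Pig-a knock-out and WT wild-type marrow); points are arrays, bars the mean and SD. Tnfsf13b lies at 0.95 to 1.11 in knock-out GPI-negative and at 1.43 to 1.45 in knock-out GPI-positive marrow, and Tnfsf14 overlaps between them.

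Among recipients, the members called were the receptors Tnfrsf18, Tnfrsf1b, Tnfrsf9 and Tnfrsf4. Of 25 tested members, 4 (16%) were higher in GPI-negative cells of knock-out grafts than in GPI-positive cells of wild-type grafts, against 7.39% of all genes called in either direction, 3.95% higher and 3.45% lower. None was called lower, and 0 of 7 ligands was called by limma. An unadjusted limma p under 0.05 was found for 9 members, but all genes were not counted at that threshold, so this count has no reference. Ligands and receptors were not tested against each other. The 2 groups did not overlap for 7 members, against 15.5% of all genes. The median log2 difference was 0.192 for receptors, 0.283 for ligands and -0.00538 for all genes. T and NK markers were higher here too, 12 of 13 with a median of 1.54, as were 6 of 8 plasmacytoid dendritic cell genes (median 1.19). Lower were 6 of 9 macrophage genes, with 2 higher, 5 of 10 neutrophil genes and 3 of 8 erythroid genes, whereas no B-cell or plasma cell gene was called.

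Tnfrsf18 read 1.08, 1.13, 0.93 and 0.91 in recipients of knock-out marrow and 0.77, 0.79 and 0.69 in recipients of wild-type marrow. All 4 of the former were above all 3 of the latter, at 0.87 ± 0.16 or 1.83-fold (limma adjusted p = 0.001486; exact permutation p = 0.02857, the smallest possible here). This call was kept under all alternatives run. Tnfrsf9 read 0.56, 0.59, 0.48 and 0.51 against 0.37, 0.39 and 0.24, again without overlap, at 0.67 ± 0.15 or 1.59-fold (limma adjusted p = 0.00716). It was lost without replicate 3 of the wild-type graft (limma adjusted p = 0.06587). The other probe sets of Tnfrsf9 overlapped between these groups, at 0.25 for the one that passed the filter and 0.08 for the one that did not. With the mean of kept probe sets Tnfrsf9 was still called.

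Tnfrsf4 read 0.85, 0.92, 0.71 and 0.78 in recipients of knock-out marrow against 0.59, 0.65 and 0.67. The groups did not overlap, at 0.59 ± 0.15 or 1.51-fold (limma adjusted p = 0.01695; exact permutation p = 0.05714). That call was lost without knock-out-graft replicate 2 (limma adjusted p = 0.06859) or wild-type-graft replicates 1 (0.07684) or 2 (0.05112). Tnfrsf1b read 1.04, 1.41, 1.17 and 1.23 against 1.04, 0.98 and 0.89, with the lowest knock-out-graft array only just above the highest wild-type-graft array. Its difference was 0.81 ± 0.20 or 1.75-fold (limma adjusted p = 0.01702; exact permutation p = 0.05714). It was lost without knock-out-graft replicate 2 (limma adjusted p = 0.0581) or wild-type-graft replicates 2 (0.05321) or 3 (0.112). The second probe set of Tnfrsf1b overlapped between these groups, at 0.44, and with the mean of its probe sets Tnfrsf1b was still called.

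Within the knock-out grafts, replicates 1 and 2 had the 2 highest values of Tnfrsf18, Tnfrsf4 and Tnfrsf9. Tnfrsf1b, the other receptor called, did not follow this order: replicate 2 was its highest at 1.41 but replicate 1 its lowest at 1.04. Replicates 1 and 2 had the highest mean T and NK marker level, at 3.94 and 3.66 (log2) against 2.99 and 3.12 in replicates 3 and 4. The Gapdh 3' minus 5' differences of replicates 1 and 2 were also nearer 0, at -0.52 and -0.33 against -0.95 and -0.90. The part of either in the receptors' levels was not tested.

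Against wild-type mice, GPI-negative cells of knock-out grafts differed in 6 of 25 members (24%), 5 higher and 1 lower, where 12.4% of all genes were called, 6.84% higher and 5.55% lower. The groups did not overlap for 10 members, against 16.3% of all genes. This comparison shares the knock-out-graft arrays with the one before, so the 2 are not independent. T and NK markers were again higher, 12 of 13 with a median of 1.49. Of the other lists, 2 of 9 B-cell genes, 6 of 9 macrophage genes, 2 of 10 neutrophil genes, 7 of 8 erythroid genes, 1 of 8 plasma cell genes and 1 of 8 plasmacytoid dendritic cell genes were lower. Higher were 2 macrophage, 2 plasma cell and 6 plasmacytoid dendritic cell genes.

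Wild-type arrays read 0.95, 0.85, 0.97 and 0.91 for Tnfrsf1b, all below the 4 knock-out-graft values. The difference was 0.96 ± 0.19 or 1.95-fold (limma adjusted p = 0.001619); its second probe set gave 0.20 and the mean of the probe sets 0.58, still called. For Tnfrsf9 the wild-type values were 0.30, 0.29, 0.24 and 0.30, below every knock-out-graft array by 0.83 ± 0.14 (1.78-fold, limma adjusted p = 0.0003721), and the mean of its probe sets gave 0.46, still called. Tnfrsf18 read 0.85, 0.69, 0.74 and 0.82 in wild type, also fully separate at 0.79 ± 0.15 (1.73-fold, limma adjusted p = 0.001154). Tnfrsf4 was at 0.32 ± 0.14 and was not called (limma adjusted p = 0.1559).

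Tnfrsf13c, the BAFF receptor, was the only member called lower in the knock-out grafts. It read 1.31, 1.22, 1.49 and 1.31 there against 1.66, 1.71, 1.52 and 1.54 in wild type, separate groups at -0.91 ± 0.18 or 1.88-fold (limma adjusted p = 0.001765). Recipients of wild-type marrow read 1.37, 1.55 and 1.49, a range that overlaps both. Tnfrsf21 read 1.29, 1.39, 1.32 and 1.47 against 1.20, 1.16, 1.20 and 1.22, at 0.57 ± 0.15 or 1.49-fold higher (limma adjusted p = 0.01228). That call was lost without knock-out-graft replicate 4 (limma adjusted p = 0.05872) and with the mean of its probe sets, where the value was 0.32 (0.06061). Tnfsf13os read 0.59, 0.44, 0.56 and 0.62 against 0.22, 0.20, 0.38 and 0.39, at 0.84 ± 0.21 or 1.79-fold (limma adjusted p = 0.008976). Its other probe set went the other way, at -0.13, and the mean gave 0.35, not called (limma adjusted p = 0.1954).

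Between hosts of a wild-type graft and wild-type mice, limma called 0 of 25 members, where 0.842% of all genes were called, 0.449% higher and 0.393% lower. An unadjusted limma p under 0.05 was found for 3 members: Tnfrsf13b at -0.36 ± 0.15, Tnfrsf13c at -0.45 ± 0.19 and Tnfsf13os at 0.49 ± 0.22. All genes were not counted at that unadjusted threshold. The groups did not overlap only for Tnfsf13os, against 13.9% of all genes. The 13 T and NK genes had a median log2 difference of -0.257 here, and none was called. Of the other lists, 2 of 10 neutrophil genes and 1 of 8 plasma cell genes were higher. Lower were 1 of 9 macrophage, 1 of 8 erythroid and 1 of 8 plasmacytoid dendritic cell genes, and no B-cell gene was called.

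The difference between the knock-out and the recipient comparisons was tested directly, since they share no array, as an interaction in the same model. It was called for 13 of 25 members, 6 more positive and 7 more negative in the knock-out mice, against 19% of all genes, 9.04% more positive and 9.96% more negative. The knock-out batch and the recipient batch also differ in the labels' amount of labelled RNA (500 and 1000 ng), so batch and setting cannot be told apart. Hybridisation controls averaged 7.777 and 5.703 (log2) in the knock-out fractions, but 6.571 and 6.569 in knock-out and wild-type grafts. The Gapdh 3' minus 5' difference averaged -0.1627 and -1.015 in the knock-out fractions, against -0.6765 and -0.6308 in those grafts. The part of array quality in the interactions was not tested. Marker lists moved between the settings as well. More positive in the knock-out mice were all 13 T and NK genes (median 1.73), 7 of 9 B-cell genes (median 0.942), 3 of 8 plasmacytoid dendritic cell genes, 2 of 8 erythroid genes and 2 of 8 plasma cell genes. More negative were 9 of 10 neutrophil genes (median -0.807), 3 of 9 macrophage genes and 3 of 8 plasma cell genes. Their part in the members' interactions was not tested.

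Tnfrsf18 was called higher in both settings and rose by more in the knock-out mice, by 0.92 on the log2 scale (limma adjusted p = 0.008625). The interactions of Tnfrsf9 and Tnfrsf4 were 0.47 and 0.16 and were not called (limma adjusted p = 0.1405 and 0.6733). Tnfrsf1b, called in recipients but not in the knock-out mice, had an interaction of -0.64, not called (limma adjusted p = 0.1479). With the mean of its probe sets it was -0.88 and called (limma adjusted p = 0.009452), as it was without knock-out-graft replicate 1 (-0.83, limma adjusted p = 0.03066). Tnfrsf25, called only in the knock-out mice, differed by 1.30 between settings (limma adjusted p = 0.0006804), and Tnfsf8 by 1.14 (limma adjusted p = 0.01327). Tnfsf11 differed by 1.36 (limma adjusted p = 0.007645), with recipients at -0.23. Tnfrsf19 differed by 1.28 (limma adjusted p = 0.0001787), being at 0.87 in the knock-out mice and at -0.40 in recipients. Tnfrsf13c differed by 0.88 (limma adjusted p = 0.03439), at 0.42 and -0.46.

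On the other side, Tnfsf13b differed by -1.19 (limma adjusted p = 0.0004193), being at -0.18 in recipients, where it read 1.15, 1.22, 1.28 and 1.26 against 1.34, 1.29 and 1.21. Tnfrsf21 differed by -1.18 (limma adjusted p = 0.001257) and Tnfrsf1a by -1.01 (limma adjusted p = 0.003015); both were lower in the knock-out mice and positive, though not called, in recipients, at 0.30 and 0.38. Tnfsf13os, Tnfsf14 and Tnfrsf22 showed the same pattern, with interactions of -1.16, -0.82 and -0.75 (limma adjusted p = 0.01575, 0.02074 and 0.02496). Tnfrsf17 differed by -0.68 (limma adjusted p = 0.03861). Only the interactions of Tnfrsf19, Tnfrsf1a, Tnfrsf21, Tnfrsf25 and Tnfsf13b were kept under all alternatives run. Of these, Tnfrsf25 passed the filter largely through knock-out GPI-negative marrow, so the size of its interaction is approximate. With the mean of probe sets, that of Tnfrsf19 was 0.54 (limma adjusted p = 0.04802) and that of Tnfsf13b -0.63 (0.003808). With that mean the interactions of Tnfrsf22 and Tnfsf13os were -0.45 and -0.69, neither called (limma adjusted p = 0.0719 and 0.06956). The Tnfsf14 interaction was lost without knock-out GPI-negative replicate 3 or wild-type-graft replicate 3 (limma adjusted p = 0.06507 and 0.06096). That of Tnfrsf22 was lost without knock-out GPI-negative replicate 2, GPI-positive replicates 1 or 2, or wild-type-graft replicate 3 (limma adjusted p from 0.05184 to 0.07883). That of Tnfrsf13c was lost in 8 of 13 fits that left out an array: knock-out GPI-negative replicate 2, each GPI-positive array, knock-out-graft replicates 2 and 4, and wild-type-graft replicates 2 and 3 (limma adjusted p from 0.05273 to 0.1009). Tnfrsf17 lost its call in 9: knock-out GPI-negative replicates 1 and 3, GPI-positive replicates 1 and 3, knock-out-graft replicates 1, 2 and 3, and wild-type-graft replicates 1 and 3 (limma adjusted p from 0.05621 to 0.1037).

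**Figure D4:**
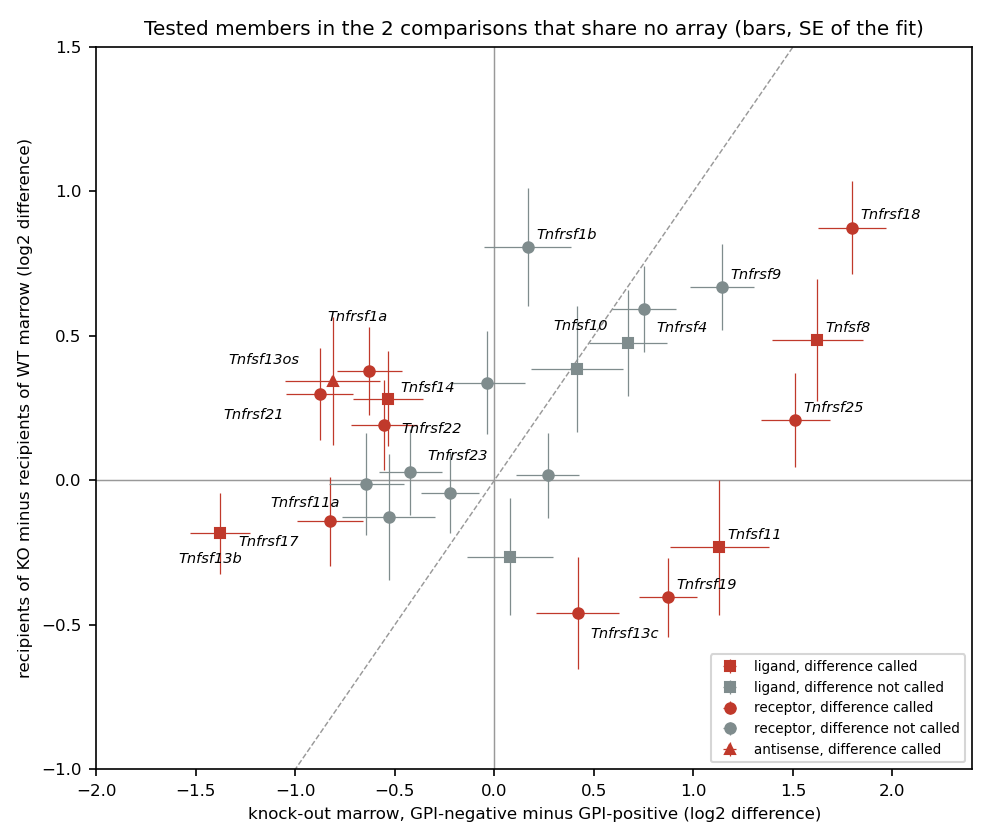
Log2 difference of each tested member in knock-out mice (horizontal axis) and in recipients (vertical axis; KO is Pig-a knock-out and WT wild-type marrow), with bars for the SE of the fit; squares are ligands, circles receptors, the triangle the antisense RNA, and red marks a called interaction. Tnfrsf18, Tnfrsf9 and Tnfrsf4 lie at upper right, and Tnfsf13b lies at -1.38 and -0.18.

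Several superfamily members carry other names, and 11 of 15 such genes were tested. In the knock-out mice 4 were higher and 2 lower, against 14.8% of all genes in each direction, with a median log2 difference of 0.183 against -0.00569 over all genes. Cd27, a costimulatory receptor of T, NK and B cells, read 1.29, 1.40 and 1.37 against 0.63, 0.70 and 0.67, at 2.28 ± 0.17 or 4.86-fold (limma adjusted p = 2.578e-09). Fasl, the death ligand of cytotoxic cells, read 0.99, 0.96 and 1.08 against 0.53, 0.20 and 0.39, at 2.13 ± 0.23 or 4.38-fold (limma adjusted p = 5.684e-07). Ltb, a ligand that organises lymphoid tissue, was higher by 1.11 ± 0.17 (limma adjusted p = 4.442e-05), and its partner Lta was also called, whereas the receptors Ltbr and Cd40 were lower. Tnf itself was at -0.16 ± 0.20 and was not called (limma adjusted p = 0.6092).

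In recipients, Ltb (0.74 ± 0.16, limma adjusted p = 0.005864) and Cd27 (0.60 ± 0.16, limma adjusted p = 0.02189) were higher. The Cd27 call was lost without knock-out-graft replicates 1 (limma adjusted p = 0.05859) or 4 (0.06545), or wild-type-graft replicates 2 (0.1633) or 3 (0.07528). Against wild type, Cd27 (0.66 ± 0.15, limma adjusted p = 0.004505) and Fasl (0.73 ± 0.20, limma adjusted p = 0.01943) were higher. The latter was lost without knock-out-graft replicates 1 (limma adjusted p = 0.07485) or 2 (0.06113), or wild-type replicates 3 (0.0632) or 4 (0.05793). Cd27 and Fasl differed between settings by 1.68 and 1.44 (limma adjusted p = 6.368e-05 and 0.003214), and Ltbr by -0.71 (limma adjusted p = 0.01872). The Ltbr interaction was lost without knock-out GPI-negative replicate 2 (limma adjusted p = 0.05532) or wild-type-graft replicate 2 (0.06137).

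Of 13 adaptor and death-domain genes, 11 were tested, and 6 were higher and 2 lower in the knock-out mice (median 0.389), where 14.8% of all genes were called in each direction. Traf1, an adaptor of costimulatory receptors that is itself induced by NF-kB, read 1.12, 1.08 and 1.04 against 0.50, 0.47 and 0.51, at 1.95 ± 0.14 or 3.87-fold (limma adjusted p = 1.23e-09). It was also higher in recipients, at 0.68 ± 0.13 (limma adjusted p = 0.002027), and against wild type, at 0.44 ± 0.12 (limma adjusted p = 0.01874), the latter lost without knock-out-graft replicate 2 (0.08192) or wild-type replicate 4 (0.05534). Its interaction was 1.27 (limma adjusted p = 0.000114). Tradd, the adaptor of death-domain receptors, was at 0.46 ± 0.12 in the knock-out mice (limma adjusted p = 0.005526) and at 0.23 with the mean of its probe sets, not called (0.1242). Cflar, a caspase-8 inhibitor, was at -0.49 ± 0.15 (limma adjusted p = 0.0191), lost without GPI-negative replicate 2 (0.0801), GPI-positive replicate 3 (0.07076) and, at -0.21, with the mean of its probe sets (0.1387). Cflar and Fadd, the adaptor that binds caspase-8, had interactions of -0.90 and -0.57 (limma adjusted p = 0.004319 and 0.03817). With the mean of probe sets these were -0.34 and -0.06 (limma adjusted p = 0.1048 and 0.8595), neither called. The Fadd interaction was also lost in 8 of the 13 fits that left out an array: knock-out GPI-negative replicate 3, GPI-positive replicates 1 and 3, knock-out-graft replicates 2, 3 and 4, and wild-type-graft replicates 2 and 3 (limma adjusted p from 0.05325 to 0.1077).

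Of 17 genes of the NF-kB module, 15 were tested, and 3 were higher and 1 lower in the knock-out mice (median 0.312), a share near the 29.5% of all genes called. Ikbkb, the kinase that releases NF-kB, was at 0.76 ± 0.10 (limma adjusted p = 6.722e-06), and at 0.35, still called, with the mean of its probe sets. It was also higher in recipients, at 0.50 ± 0.09 (limma adjusted p = 0.002045), and against wild type, at 0.61 ± 0.09 (limma adjusted p = 7.64e-05), where the mean of probe sets gave 0.23, not called (0.08379). The NF-kB feedback inhibitors Tnfaip3 and Nfkbie were higher in the knock-out mice, at 0.67 ± 0.13 and 0.42 ± 0.12 (limma adjusted p = 0.0003493 and 0.01151). Tnfaip3 had an interaction of 0.60 (limma adjusted p = 0.01742), lost without knock-out GPI-positive replicate 1 (0.05678). The subunit gene Rel had an interaction of -0.56 (limma adjusted p = 0.0357), which was lost in 7 of the 13 fits that left out an array: knock-out GPI-negative replicates 2 and 3, GPI-positive replicate 2, knock-out-graft replicates 3 and 4, and wild-type-graft replicates 1 and 2 (limma adjusted p from 0.05213 to 0.1061).

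**Figure D5:**
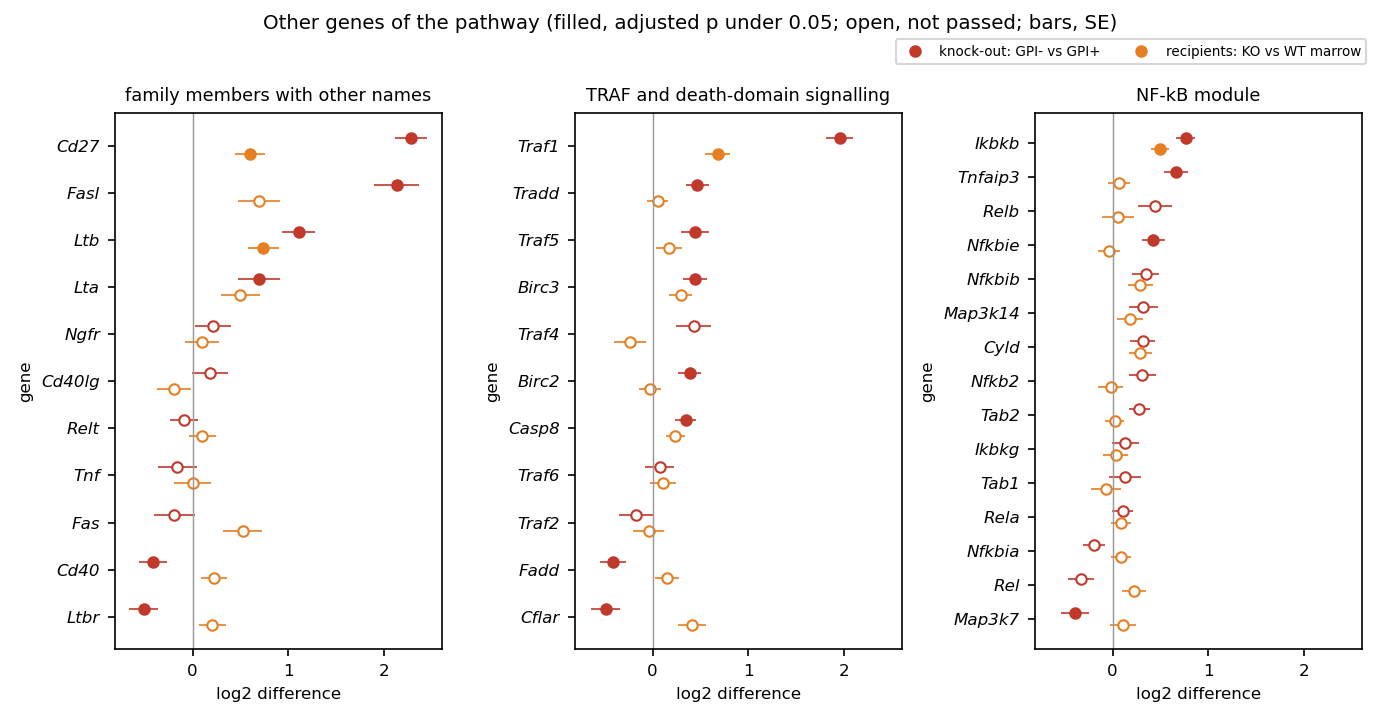
Log2 differences (horizontal axis, bars SE) of the tested genes (vertical axis) in 3 lists for knock-out GPI-negative against GPI-positive marrow (red) and recipients of knock-out (KO) against wild-type (WT) marrow (orange); filled points passed an adjusted p of 0.05. Cd27, Fasl and Traf1 lie farthest right in the knock-out mice, at 2.28, 2.13 and 1.95, and Traf1 lies at 0.68 in recipients.

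By position, 8 members lie on chromosome 4 and all were tested. In the knock-out mice 5 of these were higher (Tnfsf8, Tnfrsf9, Tnfrsf25, Tnfrsf4 and Tnfrsf18) and 0 lower, against 14.8% of all genes in each direction. Genes of that chromosome were not counted apart, and Tnfrsf25 passed the filter on dim probe sets largely through the group where it was high. Tnfrsf4 and Tnfrsf18 have no coding gene between them. The paralogs Tnfrsf22 and Tnfrsf23 on chromosome 7 likewise have none between them, and both were lower. The 6 tested members called in no comparison were Tnfrsf12a, Tnfrsf13b, Tnfrsf14, Tnfrsf8, Tnfsf4 and Tnfsf9.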

How the data were processed

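Per the file headers and the values, the deposited table holds 1 value for each of 45101 probe sets on each of 17 arrays, on a log scale read here as log10, and the submitters' processing notes name GCOS without a role. The authors' values are quantile-normalized within each batch and not between batches, as the sorted values show. How background was corrected and probes summarised was not given in the sources used here.

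Values were divided by log10 of 2, and each array was shifted so that its median equalled the mean of all array medians. Probe sets reaching the 40th percentile of their array on at least 3 arrays were kept, and the brightest with 1 gene symbol stood for its gene. R 4.3.3 and limma 3.58.1 (lmFit, eBayes with an intensity trend) fitted 5 group means over all arrays, with groups compared within batch and Benjamini-Hochberg adjustment over 14245 genes at 0.05. The script was tested on simulated data. Exact permutation tests are two-sided. The labels call the arrays biological replicates, and their number limits the precision. In the main fit, p-values rest on the spread within groups, pooled over both batches and moderated across genes, and not on the compared groups alone.

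All members called in at least 1 comparison were named with their values, and up to 3 called genes per comparison from each other list. Members and lists were chosen with earlier results of these data known. Promoter windows are RefSeq's, build GRCm38.p6. Alternatives covered the filter, normalization, gene summary, samples fitted, intensity trend, replicate block, averaging of the knock-out GPI-positive arrays and leaving out each array.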

Additional observations from a re-analysis of the deposited data

Results flagged for a closer look

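The knock-out and recipient comparisons differed for 13 members (interaction, log2, limma adjusted p under 0.05). The values were 1.36 for Tnfsf11, 1.30 for Tnfrsf25, 1.28 for Tnfrsf19, 1.14 for Tnfsf8, 0.92 for Tnfrsf18 and 0.88 for Tnfrsf13c. They were -0.68 for Tnfrsf17, -0.75 for Tnfrsf22, -0.82 for Tnfsf14, -1.01 for Tnfrsf1a, -1.16 for Tnfsf13os, -1.18 for Tnfrsf21 and -1.19 for Tnfsf13b. The call for Tnfrsf17 was lost under 12 of 20 alternatives, that for Tnfrsf13c under 11 of 21, that for Tnfrsf22 under 7 of 21, that for Tnfsf14 under 3 and that for Tnfsf13os under 2. Tnfrsf18, Tnfsf8 and Tnfsf11 lost it under 1 alternative each, the averaging of the knock-out GPI-positive arrays.

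Among 54 groups of 4 arrays, 5 held an array far from the other 3 on the deposited scale; chance alone gives about 1 in 20. Among wild-type arrays, Tnfrsf12a was 0.302 in replicate 3 (others 0.372 to 0.383), Tnfrsf19 was 0.864 in replicate 2 (others 0.750 to 0.758), Tnfrsf23 was 0.360 in replicate 4 (others 0.409 to 0.415) and Tnfsf10 was 0.313 in replicate 3 (others 0.527 to 0.562). In recipients of knock-out marrow, Tnfrsf17 was 0.232 in replicate 4 (others 0.330 to 0.348).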

How the results depend on the processing

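No result reversed under any alternative. Averaging the knock-out GPI-positive arrays left 1652 genes called in the knock-out mice against 4206, with 10 members against 17, and 978 interactions against 2707, with 5 members against 13. The wild-type graft against wild type gave 120 genes, 59 without the intensity trend and 45 with the replicate block. Leaving out 1 array gave 3298 to 3901 genes and 13 to 17 members in the knock-out mice. It gave 680 to 1310 genes and 2 to 5 members in recipients, and 1315 to 1729 genes and 5 to 8 members for knock-out graft against wild type. It gave 21 to 89 genes and 0 to 0 members for wild-type graft against wild type, and 2095 to 3064 genes and 9 to 13 members for the interaction. Recipients had 680 calls without wild-type-graft replicate 2 and 684 without replicate 3, against 1053; their member calls fell to 2 without either of these or knock-out-graft replicate 2. The wild-type comparison fell to 21, 55 and 77 genes without wild-type-graft replicates 1, 2 and 3, and to 29, 60 and 57 without wild-type replicates 1, 2 and 4.

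Correlations of deviations between same-numbered arrays ran from -0.0385 to -0.0172 in the knock-out mice, from -0.18 to 0.0318 in recipients, from -0.113 to 0.0325 for knock-out graft against wild type and from -0.0307 to 0.098 for wild-type graft against wild type. In the last, replicates 1 and 2 correlated best with their own number. None exceeded 0.1, and the main fit took the arrays to share only a number. Deviations from the means of so few arrays cannot show whether same-numbered fractions came from 1 animal, so pairing is not excluded. With the replicate block, 16 members were called in the knock-out mice, 3 in recipients, 6 for knock-out graft against wild type and 10 for the interaction. The main fit gave 17, 4, 6 and 13. The share of all genes under the block is not given beside these counts, so they describe only how far the calls held. The block ended the knock-out call of Tnfrsf23 (limma adjusted p = 0.05238), the recipient call of Tnfrsf1b (0.05267) and the interactions of Tnfrsf13c, Tnfrsf17, Tnfrsf22, Tnfaip3, Rel and Fadd. Under every alternative run, 9 of the 17 knock-out calls of members were kept, 1 of the 4 recipient calls, 4 of the 6 against wild type and 5 of the 13 interactions. Those 9 include Tnfrsf17 and Tnfsf11, which were missing from 1 alternative. For each of them 14 alternatives were run, where the other called members had 15. Fitting only arrays of the same batch cannot give the interaction. Dim probe sets limit the precision: without detection flags, presence cannot be told from background.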
